A study of Danio rerio with 18 samples.

Results

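The genes described here encode the mitochondrial respiratory chain and ATP synthase. They were chosen by symbol: every row of both count tables whose symbol begins, in either case, with nduf followed by a, b, c, s or v, with sdha to sdhd, uqcr, cox4 to cox8, atp5, mt-nd, mt-co, mt-cyb or mt-atp, or is cyc1. The rule found 122 genes among 32520 gene identifiers. Of these, 109 are nuclear genes and 13 are carried by mitochondrial DNA. The nuclear genes comprise 42 of complex I, 5 of complex II, 9 of complex III, 21 of complex IV, 18 of complex V, 12 assembly factors of complexes I and II, and 2 inhibitors of ATP synthase. The mitochondrially encoded genes comprise 7 of complex I, 1 of complex III, 3 of complex IV and 2 of complex V. By their symbols NDUFA4 and its paralogues are counted with complex I in all counts and sums. After a filter on low counts 117 were tested. The 5 that were not, NDUFA12, ndufa4l2b, NDUFB5, NDUFS1 and NDUFS4, are all nuclear, carry complex I symbols, and had between 1 and 51 counts each over 15 libraries.

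Complexes I to IV of the inner mitochondrial membrane pass electrons from NADH and succinate to oxygen, and complexes I, III and IV pump protons as they do so. Complex V, the ATP synthase, uses the proton gradient to make ATP. Nuclear and mitochondrial genomes each encode subunits of complexes I, III, IV and V, whereas complex II is wholly nuclear. Heart muscle is dense in mitochondria, and in mammals several complex IV subunits have one form that is typical of heart and skeletal muscle and another found in most tissues.

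Messenger RNA was sequenced from ventricles of adult zebrafish, in a series that sets oncogene-driven neoplasia of the heart beside its regeneration. The analysis used 15 libraries in 5 groups of 3. The 7 dpci group carried the driver cmcl2:Gal4-ERT2 alone, received no treatment, and was taken 7 days after cryoinjury, in which part of the ventricle is killed by cold and later regrows. The GFP-HRAS rapamycin and GFP-HRAS DMSO groups carried cmcl2:Gal4-ERT2;UAS:GFP-HRAS, in which the oncogene HRAS is fused to a green fluorescent protein. The RFP rapamycin and RFP DMSO groups carried cmcl2:Gal4-ERT2;UAS:RFP, which makes a red fluorescent protein instead. All 4 transgenic groups were uninjured and were given 4 overnight pulses of 2.5 uM 4-hydroxytamoxifen (4-OHT), which switches on the Gal4-ERT2 driver. Alongside the pulses they received 0.5 uM rapamycin, which inhibits the growth-controlling kinase TOR, or 0.05% DMSO, its vehicle, over 16 days. The driver, named cmlc2 in the sample titles, is a promoter of cardiomyocytes, and RNA came from the whole ventricle and not from these cells alone. Whether libraries are separate animals or pools is not stated in the labels, so each p-value measures only the spread between these libraries. Another 3 samples, from uninjured driver-only fish, were not analysed here.

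Library totals ran from 15861618 to 20003711 counts. Of 2 zebrafish genes with the symbol HRAS, ENSDARG00000098497 averaged 6.60 CPM (counts scaled to a common library size) in GFP-HRAS rapamycin, 7.42 in GFP-HRAS DMSO, 2.12 in RFP rapamycin and 1.63 in RFP DMSO. The other, ENSDARG00000005651, averaged 10.6, 5.96, 20.8 and 17.7 CPM in the same order, and whether transgene reads fall on either is not given in the sources used here. Single libraries stood apart within their groups on the respiratory genes. Library 3 of RFP rapamycin had the highest value of its group for 86 of 104 nuclear members and 13 of 13 mitochondrially encoded ones, 82.7% of the nuclear members against 35.7% of all genes tested. Library 1 of RFP DMSO was highest for 79 of 104 and 13 of 13, and library 3 of GFP-HRAS rapamycin for 75 of 104 and 12 of 13. Library 1 of GFP-HRAS DMSO was highest for 61 of 104 and 13 of 13, and library 3 of 7 dpci for 16 of 104 and 13 of 13. Of all genes these 4 libraries were highest for 35%, 39.8%, 41.7% and 33%, in the same order. With 15.4% of nuclear members, 7 dpci 3 was thus high on the mitochondrially encoded members only. Results were also computed without RFP rapamycin 3, RFP DMSO 1 and GFP-HRAS rapamycin 3 together, and without each library in turn. These 3 libraries were picked for high values of the members themselves. Leaving them out therefore lowers the member means of their groups, and that fit is no independent check. GFP-HRAS DMSO 1 and 7 dpci 3 were kept in it. The median SD of log2 CPM over nuclear members was 0.094 in 7 dpci, 0.209 in both GFP-HRAS groups, 0.338 in RFP rapamycin and 0.281 in RFP DMSO. Over mitochondrially encoded members it was 0.237 in 7 dpci, 0.380 in GFP-HRAS rapamycin, 0.428 in GFP-HRAS DMSO, 0.665 in RFP rapamycin and 0.519 in RFP DMSO.

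Summed over 109 genes, the nuclear respiratory transcripts were lowest in GFP-HRAS DMSO hearts and highest in 7 dpci hearts. Levels are CPM after TMM scaling, which sets libraries to a common size by a trimmed mean of gene ratios. The nuclear sum was 25502, 26053 and 24478 CPM in the 7 dpci libraries, 17274, 19138 and 22773 in GFP-HRAS rapamycin, and 14553, 13184 and 12838 in GFP-HRAS DMSO. It was 20849, 21606 and 29421 CPM in RFP rapamycin and 24221, 19177 and 21287 in RFP DMSO. The 3 GFP-HRAS DMSO libraries lay below every library of the other groups, and the 7 dpci libraries lay above every library except RFP rapamycin 3. In order of the group means, 7 dpci (25344 ± 799, SD, n = 3) and RFP rapamycin (23959 ± 4746) overlapped. So did RFP rapamycin and RFP DMSO (21562 ± 2533), and RFP DMSO and GFP-HRAS rapamycin (19728 ± 2797), whereas GFP-HRAS DMSO (13525 ± 907) was apart from its neighbour. These sums depend on the TMM factors, which were 1.21 to 1.35 in GFP-HRAS DMSO libraries and 0.79 to 1.04 in the others. As a share of raw counts the nuclear genes averaged 2.58% in 7 dpci, 2.06% in RFP rapamycin and 2.01% in RFP DMSO. The share was 1.76%, 1.81% and 1.97% in GFP-HRAS rapamycin, against 1.75%, 1.74% and 1.73% in GFP-HRAS DMSO, apart by a narrow margin. Levels are not compared between genes, because the deposited tables give no gene lengths.

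The 13 mitochondrially encoded genes took a much larger and more variable part of the libraries. Their sum was 157512, 180657 and 215696 CPM in 7 dpci, 132359, 171267 and 225232 in GFP-HRAS rapamycin, and 132767, 76870 and 85851 in GFP-HRAS DMSO. It was 120607, 110458 and 261653 CPM in RFP rapamycin and 241850, 140195 and 137094 in RFP DMSO. GFP-HRAS DMSO 2 and 3 had the lowest sums, while GFP-HRAS DMSO 1 lay inside the RFP rapamycin and GFP-HRAS rapamycin ranges and just below the RFP DMSO range. As a share of raw counts these genes made up 18.7% ± 2.37 in 7 dpci, 16.4% ± 3.04 in GFP-HRAS rapamycin, 12.6% ± 3.05 in GFP-HRAS DMSO, 13.9% ± 5.83 in RFP rapamycin and 16.0% ± 4.95 in RFP DMSO (SD, n = 3 each). The ratio of the mitochondrially encoded to the nuclear sum was 7.31 ± 1.36 in 7 dpci, 8.83 ± 1.12 in GFP-HRAS rapamycin, 7.21 ± 1.71 in GFP-HRAS DMSO, 6.60 ± 2.02 in RFP rapamycin and 7.91 ± 1.85 in RFP DMSO. The ranges of that ratio overlapped between every pair of neighbouring groups in that order.

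**Figure D1:**
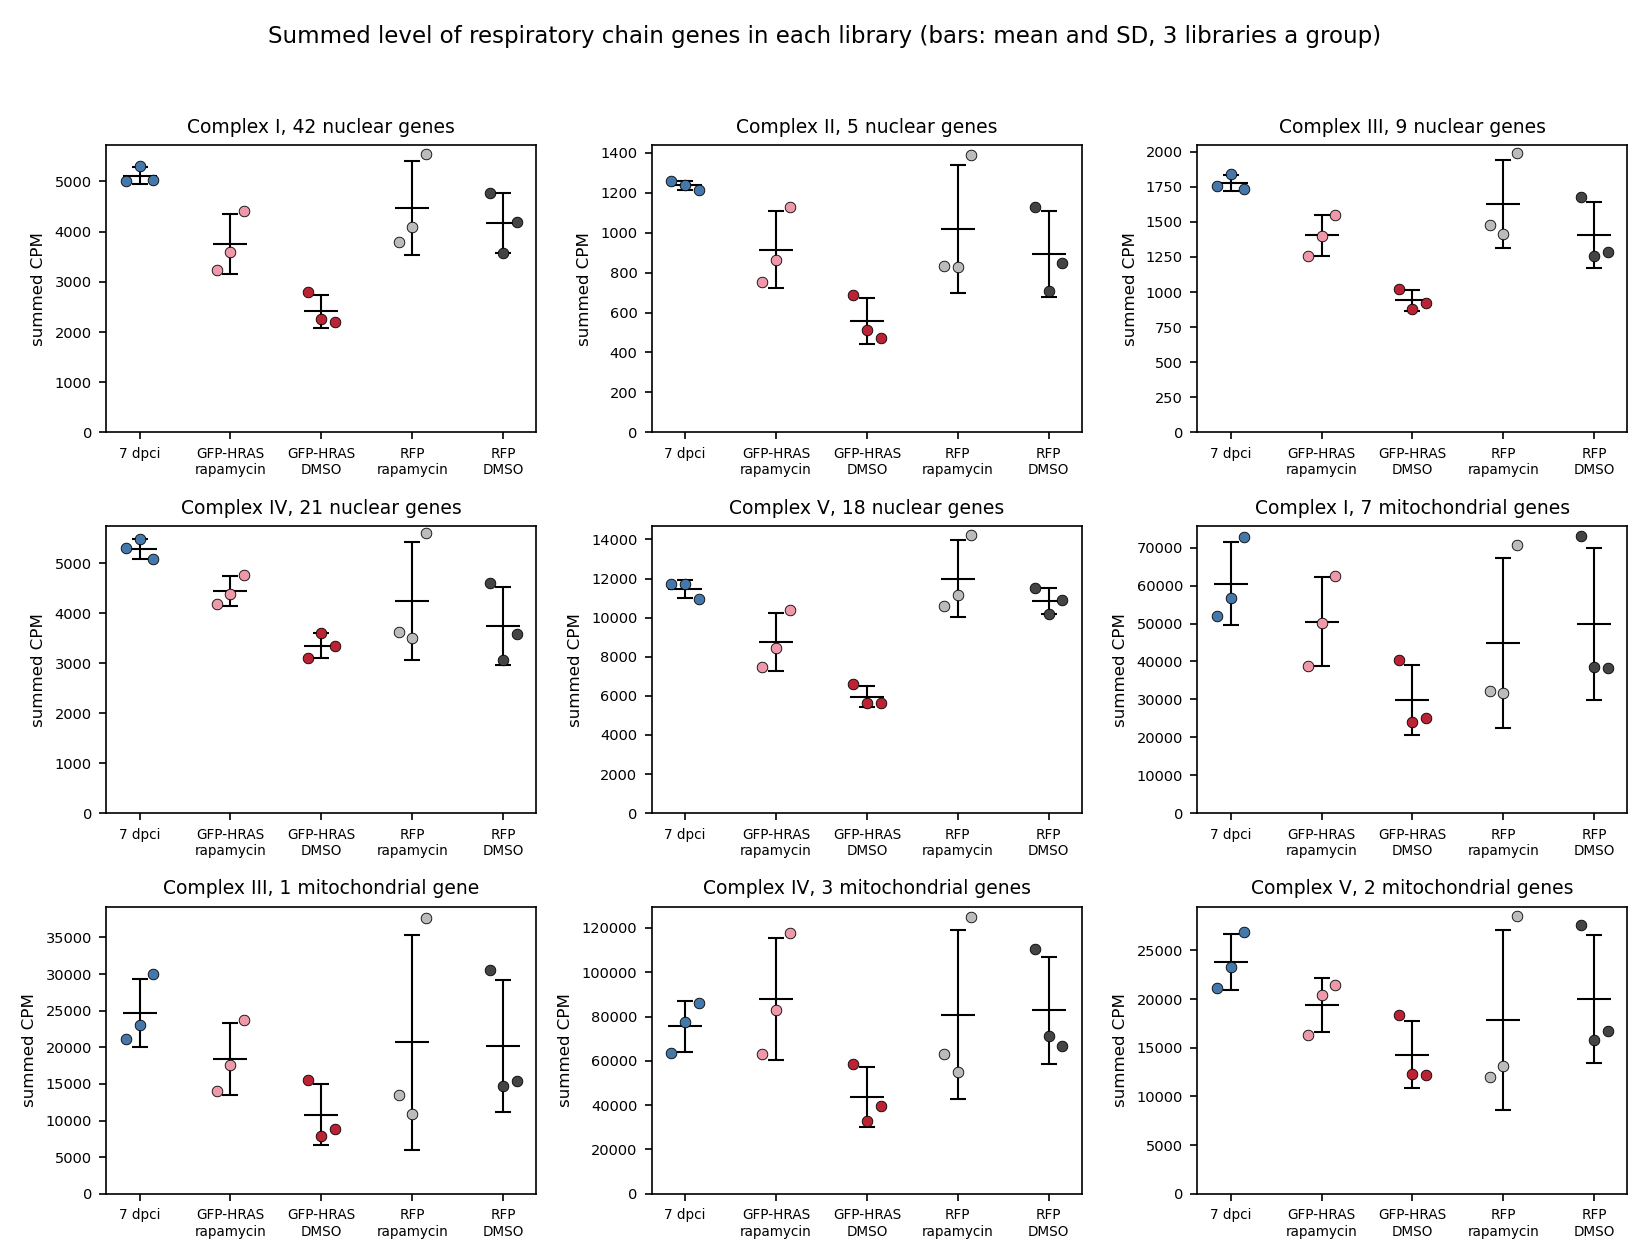
Sum of TMM-scaled CPM over the genes of each complex in each of 15 libraries, nuclear and mitochondrially encoded genes apart, with a bar at each group mean and the SD of 3 libraries; the y axis of each panel starts at 0. Nuclear sums of complexes I, II, III and V are lowest in GFP-HRAS DMSO, and mitochondrially encoded sums spread widely within groups.

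The first question was what the HRAS transgene was accompanied by in vehicle-treated hearts. In GFP-HRAS DMSO against RFP DMSO, 41 of 117 members fell and 9 rose at an adjusted p under 0.05 in edgeR's quasi-likelihood test. Over all 16044 genes tested, 22.6% were called lower and 24.9% higher; among members the shares were 35% and 7.69%. The median log2 fold change was -0.51 over nuclear members and -0.83 over mitochondrially encoded ones, beside 0.02 over all genes. In these whole-ventricle samples fewer cells of a type and less RNA per cell cannot be told apart. When libraries were scaled by their totals instead of by TMM, log2 changes of all genes shifted by a median of 0.46. Then 26 of 117 members were lower and 14 higher, beside 11.3% and 37.9% of all genes. The medians were -0.05 for nuclear and -0.38 for mitochondrially encoded members. Relative to the median of all genes the members lay below it under both scalings. Without the 3 libraries that stood apart 41 members were lower and 14 higher, beside 24.6% and 26% of all genes. The medians were then -0.34 for nuclear and -0.45 for mitochondrially encoded members, and without GFP-HRAS DMSO 1 they were -0.59 and -1.12. Of the calls, 25 of 41 lower and 5 of 9 higher held under every alternative tried.

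The shares of lower calls in complexes I and V, 40.5% and 61.1%, were above the 22.6% of all genes, and those in complexes II, III and IV were near it. Complex V, whose rotary F1 head makes ATP, had 11 of 18 nuclear subunits lower and 1 higher, with a median log2 change of -0.86. Nuclear complex I, which takes electrons from NADH, had 15 of 37 lower and 2 higher, with a median of -0.53. Complex III had 2 of 9 lower (median -0.61), complex II had 1 of 5 lower (median -0.59), and neither had a higher call. Complex IV, the oxidase that hands electrons to oxygen, had 5 of 21 lower and 6 higher, 23.8% and 28.6%, which is close to the shares over all genes. Its median was -0.15, and with scaling by library totals it became 0.32, with 3 lower and 7 higher. The complex V median was -0.40 under that scaling, with 8 lower and 1 higher. Over all genes that scaling called 11.3% lower and 37.9% higher, with log2 changes shifted by a median of 0.461.

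Summed by complex, the nuclear subunits of complex V averaged 5954 ± 546 CPM in GFP-HRAS DMSO, against 10859 ± 666 in RFP DMSO (SD, n = 3 each). The ratio of the means was 0.548, and the libraries did not overlap. Complex I averaged 2415 ± 326 CPM in GFP-HRAS DMSO, against 4172 ± 595 in RFP DMSO, a ratio of 0.579, also without overlap. By symbol the complex I sum includes NDUFA4, whose product sits in complex IV in mammals, and the complex IV sum does not. The ratios were 0.623 for complex II and 0.670 for complex III. For complex IV the means were 3356 ± 248 CPM in GFP-HRAS DMSO and 3747 ± 783 in RFP DMSO, a ratio of 0.896 with overlapping libraries. Complex IV thereby made up 24.9% ± 3.16 of the nuclear sum in GFP-HRAS DMSO, against 17.3% ± 1.56 in RFP DMSO. Complex V made up 44.0% ± 1.24 in GFP-HRAS DMSO, against 50.6% ± 2.83 in RFP DMSO. The sums depend on the TMM scaling. As a share of raw counts, complex V averaged 0.766% ± 0.0254 in GFP-HRAS DMSO and 1.01% ± 0.0457 in RFP DMSO. Complex I averaged 0.31% ± 0.0224 and 0.389% ± 0.0467 in the same order. Neither overlapped, complex I by a narrow margin, whereas complexes II and III overlapped. Complex IV was higher on that scale in GFP-HRAS DMSO, 0.434% ± 0.0529 against 0.348% ± 0.0625 in RFP DMSO, with overlap. No test was made of these sums and shares, which are descriptions.

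**Figure D2:**
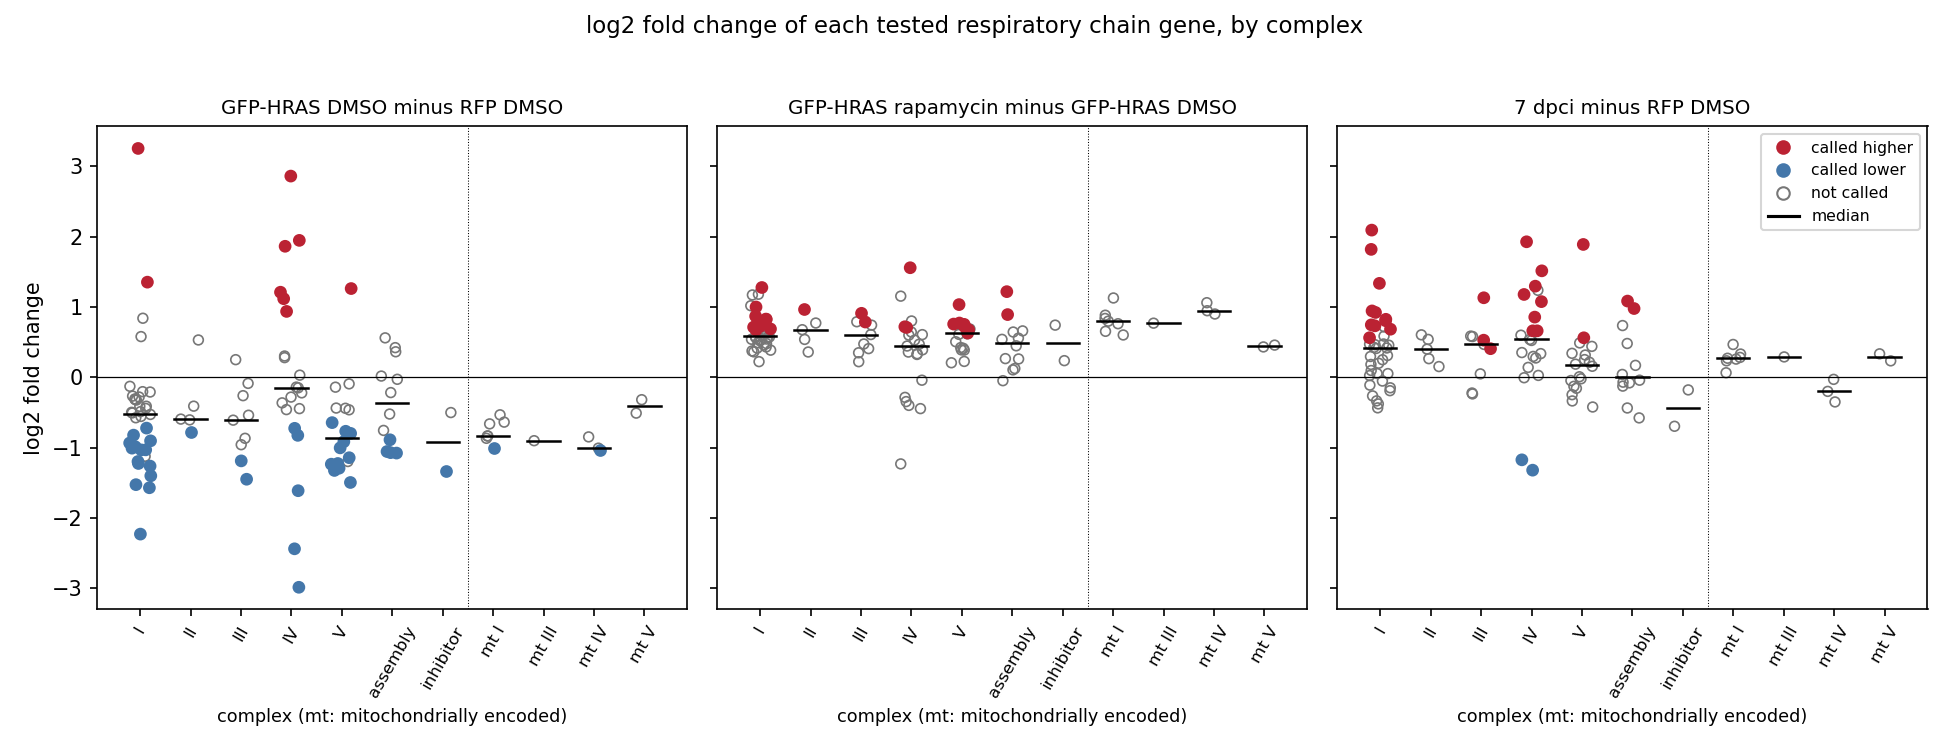
Log2 fold change of each tested member by complex and genome, in 3 panels: GFP-HRAS DMSO minus RFP DMSO, GFP-HRAS rapamycin minus GFP-HRAS DMSO, and 7 dpci minus RFP DMSO; red points are called higher, blue points lower, at an adjusted p under 0.05, open points are not called and black bars are medians. In the first panel most members lie below 0 and complex IV runs from -2.98 to 2.86. In the second all but 7 of 117 members lie above 0. Values are with TMM scaling, and with library totals 28, 27 and 10 members had the opposite sign, in panel order.

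Among complex I subunits, NDUFV2, an iron-sulphur subunit of the NADH-oxidising module, had 113, 84.0 and 85.9 CPM in GFP-HRAS DMSO, against 307, 264 and 271 CPM in RFP DMSO. The highest GFP-HRAS library was below the lowest RFP library by a wide margin. NDUFV2 fell by 1.57 ± 0.21 (SE) on the log2 scale (adjusted p = 0.000401, edgeR). NDUFA3, an accessory subunit, had 43.3, 37.2 and 33.4 CPM in GFP-HRAS DMSO, against 120, 97.5 and 112 CPM in RFP DMSO, again without overlap, and its log2 change was -1.52 ± 0.20 (adjusted p = 0.000397, edgeR). NDUFS3, a core subunit near the quinone site, fell by 0.90 ± 0.21 (adjusted p = 0.00478, edgeR). The core subunits NDUFS8 and NDUFV1 did not pass the test: NDUFS8 averaged 181 ± 20.9 CPM in GFP-HRAS DMSO and 242 ± 34.8 in RFP DMSO, and NDUFV1 averaged 239 ± 11.7 CPM in GFP-HRAS DMSO and 276 ± 58.3 in RFP DMSO (SD, n = 3 each). NDUFA1 changed most of the lower complex I genes, by -2.23 ± 0.48 (adjusted p = 0.00349, edgeR), at only 2.15, 3.52 and 1.79 CPM in GFP-HRAS DMSO, against 14.9, 6.11 and 14.2 CPM in RFP DMSO.

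The 2 complex I symbols that rose were paralogues of NDUFA4, whose product sits in complex IV in mammals although its name is that of complex I. NDUFA4 itself fell by 1.22 ± 0.22 (adjusted p = 0.00136, edgeR), with 384, 272 and 279 CPM in GFP-HRAS DMSO, against 730, 696 and 766 CPM in RFP DMSO. Its paralogue ndufa4b had 3.06, 3.97 and 4.58 CPM in GFP-HRAS DMSO, against 2.61, 0.917 and 1.05 CPM in RFP DMSO, a log2 change of 1.35 ± 0.47 (adjusted p = 0.0329, edgeR). NDUFA4L2, whose mammalian counterpart is induced by low oxygen, had 0.548, 4.83 and 4.98 CPM in GFP-HRAS DMSO, against 0.196, 0.428 and 0.441 CPM in RFP DMSO, a log2 change of 3.25 ± 1.17 (adjusted p = 0.0381, edgeR). Neither call was stable. Both were lost when GFP-HRAS DMSO 2 or 3 or RFP DMSO 2 or 3 was left out (adjusted p between 0.0794 and 0.12), and that of NDUFA4L2 also without RFP DMSO 1 (0.103). With the replicate block both were also uncalled (adjusted p = 0.0557 for ndufa4b and 0.0657 for NDUFA4L2, edgeR). In GFP-HRAS rapamycin, NDUFA4L2 ran from 0.55 CPM in library 3 to 9.33 CPM in library 1.

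In complex II, SDHA, the flavoprotein that oxidises succinate, had 311, 231 and 233 CPM in GFP-HRAS DMSO, against 544, 367 and 424 CPM in RFP DMSO. All GFP-HRAS libraries were below the RFP libraries, and the log2 change was -0.78 ± 0.26 (adjusted p = 0.0301, edgeR). Leaving out GFP-HRAS DMSO 2 or 3, or RFP DMSO 1 or 3, ended that call (adjusted p between 0.0571 and 0.109), as did scaling by library totals, where the change was -0.32 (0.23). In complex III the calls were the paralogous core genes UQCRC2 and uqcrc2a. UQCRC2 had 147, 108 and 121 CPM in GFP-HRAS DMSO, against 299, 291 and 268 CPM in RFP DMSO, and fell by 1.19 ± 0.18 (adjusted p = 0.000705, edgeR). The paralogue uqcrc2a fell by 1.45 ± 0.22 (adjusted p = 0.00067, edgeR). Both held under all 13 alternatives. CYC1, the cytochrome c1 gene, averaged 298 CPM in GFP-HRAS DMSO and 359 in RFP DMSO and was not called.

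With its shares of higher and lower calls both near those of all genes, complex IV is described here by its genes. Paralogues of one subunit had opposite calls in 2 cases, subunits 7a and 6b. The gene cox7a1, whose mammalian counterpart is the heart and muscle form of subunit 7a, had 17.4, 17.5 and 27.8 CPM in GFP-HRAS DMSO, against 147, 169 and 181 CPM in RFP DMSO. It fell by 2.98 ± 0.48 (adjusted p = 0.00082, edgeR), the largest decrease among the members. Both genes with the symbol COX7A2, the form found in most mammalian tissues, rose. ENSDARG00000110700 had 20.5, 16.0 and 13.8 CPM in GFP-HRAS DMSO, against 5.88, 2.63 and 5.35 CPM in RFP DMSO (log2 change 1.86 ± 0.31, adjusted p = 0.000969, edgeR). ENSDARG00000053217 had 39.9, 62.7 and 61.9 CPM in GFP-HRAS DMSO, against 34.8, 25.0 and 26.4 CPM in RFP DMSO (0.94 ± 0.23, adjusted p = 0.00619, edgeR). The groups did not overlap for any of the 3 genes. Of all counts on them, cox7a1 took 22.3%, 18.2% and 26.8% in GFP-HRAS DMSO, against 78.4%, 86.0% and 85.1% in RFP DMSO.

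For subunit 6a one gene was called. The gene cox6a1 (ENSDARG00000022438) had 129, 254 and 218 CPM in GFP-HRAS DMSO, against 40.1, 20.7 and 22.1 CPM in RFP DMSO, with no overlap. It rose by 2.86 ± 0.44 (adjusted p = 0.000683, edgeR). The other gene of that symbol, COX6A1 (ENSDARG00000054588), had 210, 180 and 175 CPM in GFP-HRAS DMSO, against 334, 177 and 268 CPM in RFP DMSO, overlapping and not called. The share of cox6a1 in the pair was 38.0%, 58.5% and 55.5% in GFP-HRAS DMSO, against 10.7%, 10.5% and 7.62% in RFP DMSO. Near-identical paralogues can share reads, and the symbols do not tell which of the pair matches the mammalian heart form.

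For subunits 5b and 8 one paralogue rose while the other stayed uncalled. One of 3 COX5B genes, ENSDARG00000015978, had 72.6, 117 and 139 CPM in GFP-HRAS DMSO, against 36.0, 27.4 and 22 CPM in RFP DMSO. It rose by 1.95 ± 0.38 (adjusted p = 0.00224, edgeR), and its share of COX5B counts was 20.6%, 29.8% and 36.6% in GFP-HRAS DMSO, against 6.55%, 9.84% and 6.47% in RFP DMSO. The gene cox8a had 95.9, 146 and 175 CPM in GFP-HRAS DMSO, against 82.6, 50.1 and 60.2 CPM in RFP DMSO, and rose by 1.12 ± 0.25 (adjusted p = 0.00454, edgeR). Its partner cox8b, whose mammalian namesake is a muscle form, averaged 181 ± 3.44 CPM in GFP-HRAS DMSO and 221 ± 49.0 in RFP DMSO and was not called. For subunit 6b, of which cox6b2 was named after its value was seen, cox6b1 rose by 1.21 ± 0.38 (adjusted p = 0.022, edgeR) and cox6b2 fell by 0.72 ± 0.18 (adjusted p = 0.00813, edgeR). The call of cox6b1 was lost without GFP-HRAS DMSO 2 or 3 or RFP DMSO 2 or 3 (adjusted p between 0.0688 and 0.0896), and that of cox6b2 with scaling by library totals (adjusted p = 0.195). Over its 13 alternatives the adjusted p of cox6b2 ran from 0.00123 to 0.195.

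The remaining complex IV decreases were COX4I2, COX4I1 and COX7A2L. COX4I2, whose mammalian counterpart is the form of subunit 4 found in lung and under low oxygen, had 6.16, 5.78 and 2.95 CPM in GFP-HRAS DMSO, against 9.47, 19 and 17.2 CPM in RFP DMSO (log2 change -1.61 ± 0.35, adjusted p = 0.004, edgeR). COX4I1, the common form, had 412, 388 and 389 CPM in GFP-HRAS DMSO, against 711, 679 and 724 CPM in RFP DMSO (-0.82 ± 0.16, adjusted p = 0.00205, edgeR). Its adjusted p ran from 1.14e-06 to 0.054 over the alternatives, and the highest value came with scaling by library totals, where the change was -0.36 and uncalled. The duplicate cox4i1l averaged 364 ± 90.8 CPM in GFP-HRAS DMSO and 301 ± 190 in RFP DMSO and was not called. COX7A2L, which in mammals helps to join complexes III and IV into supercomplexes, was low throughout, with 0.457, 0.451 and 0.638 CPM in GFP-HRAS DMSO, against 2.28, 3.18 and 3.03 CPM in RFP DMSO. It fell by 2.44 ± 0.36 (adjusted p = 0.000554, edgeR).

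**Figure D3:**
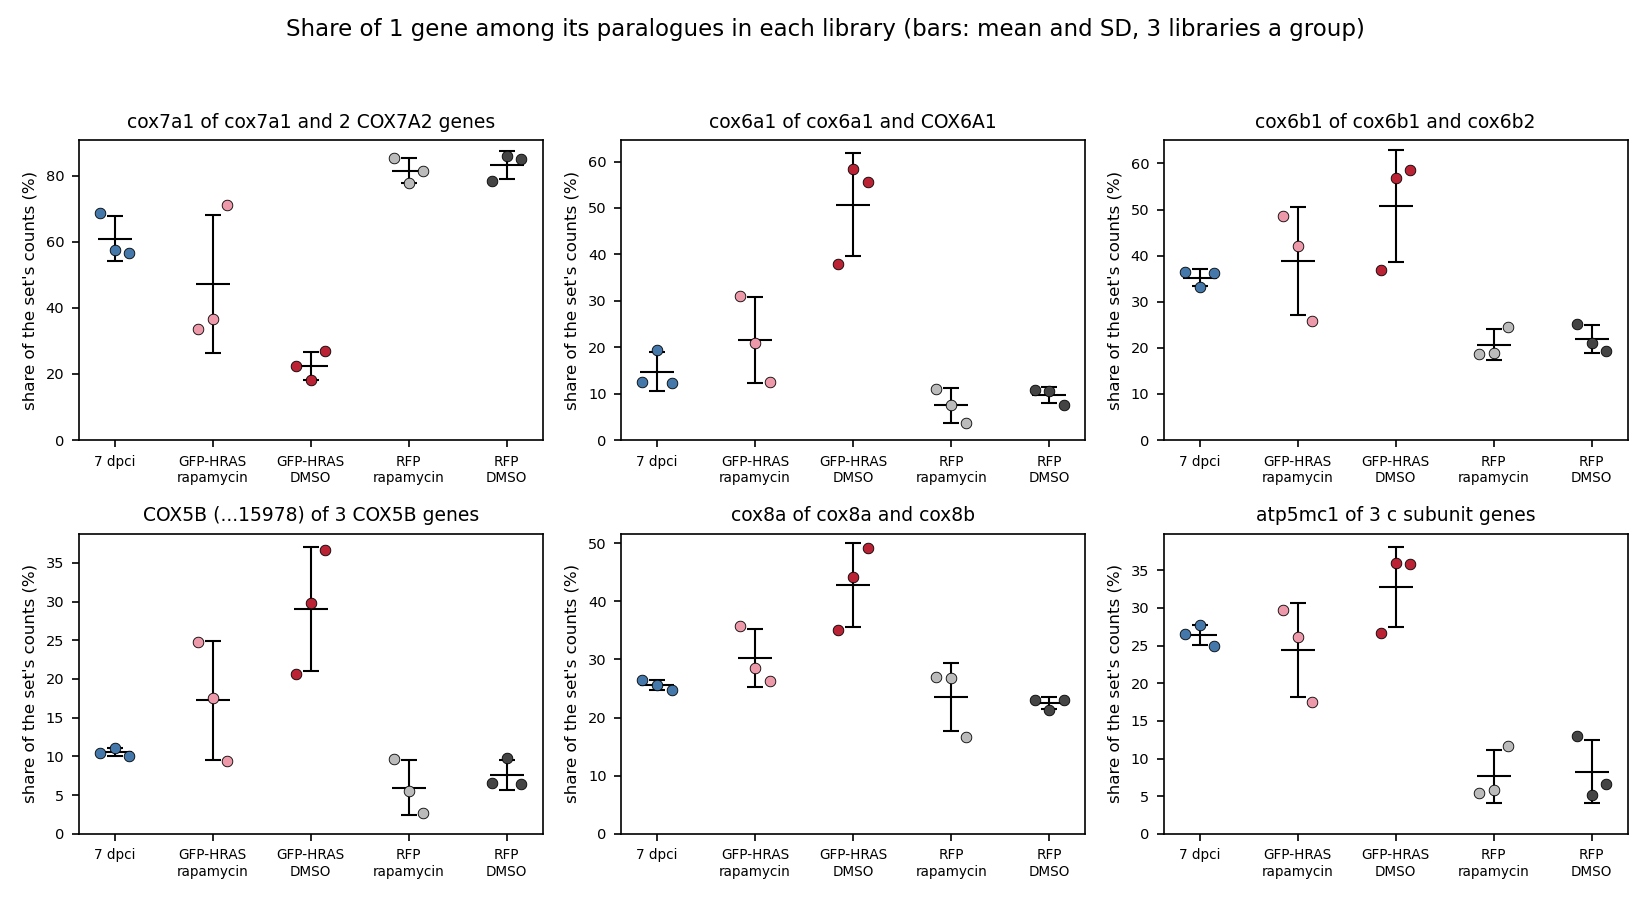
Share of counts taken by one paralogue within its subunit, in percent, for cox7a1, cox6a1, cox6b1, COX5B (ENSDARG00000015978), cox8a and atp5mc1; points are libraries, and bars give the group mean and SD of 3 libraries. The cox7a1 share lies at 18.2% to 26.8% in GFP-HRAS DMSO and at 78.4% to 86.0% in RFP DMSO, and the other 5 shares run the opposite way.

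In complex V the alpha, beta and gamma subunit genes of the F1 head fell, and of the c subunit genes one fell and one rose. ATP5F1B, the catalytic beta subunit, had 1200, 973 and 1105 CPM in GFP-HRAS DMSO, against 2041, 2292 and 2258 CPM in RFP DMSO. It fell by 1.002 ± 0.17 (adjusted p = 0.000955, edgeR). ATP5F1A, the alpha subunit, fell by 0.80 ± 0.20 (adjusted p = 0.00846, edgeR) and ATP5F1C, the gamma subunit of the shaft, by 0.91 ± 0.19 (adjusted p = 0.00263, edgeR). Of these 3, the alpha subunit lost its call with scaling by library totals. Its adjusted p was then 0.11, and it ran from 0.00113 to 0.11 over its alternatives.

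The c subunits form the membrane ring of ATP synthase, and in mammals 3 genes encode the same mature protein. Here atp5mc3b had 368, 283 and 273 CPM in GFP-HRAS DMSO, against 823, 881 and 906 CPM in RFP DMSO. It fell by 1.49 ± 0.22 (adjusted p = 0.000592, edgeR). In contrast atp5mc1 had 192, 251 and 243 CPM in GFP-HRAS DMSO, against 155, 56.1 and 75.3 CPM in RFP DMSO, and rose by 1.26 ± 0.41 (adjusted p = 0.025, edgeR). Leaving out GFP-HRAS DMSO 2 or 3, or RFP DMSO 2 or 3, ended that call (adjusted p between 0.0694 and 0.0941). ATP5MC3 averaged 161 ± 3.38 CPM in GFP-HRAS DMSO and 172 ± 40.7 in RFP DMSO. Within the 3 genes, atp5mc1 took 26.7%, 36.0% and 35.8% of counts in GFP-HRAS DMSO, against 13%, 5.21% and 6.60% in RFP DMSO, with no overlap.

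Among genes that act on the complexes, 4 of 12 assembly factors were lower and none higher: NDUFAF1, NDUFAF3, NDUFAF5 and NDUFAF6, all for complex I, with log2 changes from -1.08 to -0.89. These 4 were named after their values were seen. NDUFAF1 and NDUFAF6 held under every alternative, NDUFAF3 was lost without GFP-HRAS DMSO 2 or 3 or RFP DMSO 2 or 3 (adjusted p between 0.0579 and 0.108), and NDUFAF5 without GFP-HRAS DMSO 2 (0.0502). With scaling by library totals NDUFAF3 was -0.45 (0.179) and NDUFAF5 -0.60 (0.0589), both uncalled, and with the replicate block NDUFAF3 was uncalled (0.0534). The median of the 12 was -0.37, and 0.09 with scaling by library totals. Of the inhibitors of ATP synthase, which hold back its reverse reaction, atp5if1b fell by 1.34 ± 0.43 (adjusted p = 0.0237, edgeR) at 5.07, 2.46 and 1.44 CPM in GFP-HRAS DMSO, against 7.96, 8.38 and 6.34 CPM in RFP DMSO. It was lost without GFP-HRAS DMSO 2 or 3 or RFP DMSO 2 (adjusted p between 0.0642 and 0.0803), and with scaling by library totals (0.0899). Its duplicate atp5if1a averaged 146 ± 26.1 CPM in GFP-HRAS DMSO and 207 ± 50.9 in RFP DMSO and was not called.

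All 13 mitochondrially encoded genes had negative log2 changes, and 2 of them passed the test. MT-CO2, a core subunit of complex IV, had 12805, 7251 and 8648 CPM in GFP-HRAS DMSO, against 26408, 16591 and 16010 CPM in RFP DMSO, a log2 change of -1.03 ± 0.36 (adjusted p = 0.0337, edgeR). MT-ND3, of complex I, had 864, 455 and 577 CPM in GFP-HRAS DMSO, against 1673, 1088 and 1064 CPM in RFP DMSO (-1.01 ± 0.39, adjusted p = 0.0496, edgeR). Neither gene overlapped between the groups. Both calls depended on single libraries and on the scaling. Without GFP-HRAS DMSO 2 or 3 or RFP DMSO 1 the adjusted p lay between 0.102 and 0.171, and for MT-ND3 it was also above 0.05 without RFP DMSO 2 or 3 (0.0673 and 0.0643). With scaling by library totals MT-CO2 was -0.58 (0.12) and MT-ND3 -0.55 (0.171). For MT-CO3, next to them, the log2 change was -1.01 ± 0.40 with an adjusted p of 0.0547 (edgeR).

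The other 10 had smaller or less certain changes. MT-CO1 was -0.85 ± 0.37, MT-CYB -0.90 ± 0.48, MT-ND4 -0.87 ± 0.41, and MT-ND5 and MT-ND6 were both -0.83. MT-ND2 was -0.66, mt-nd4l -0.64 and MT-ND1 -0.53. The ATP synthase genes MT-ATP6 at -0.51 ± 0.35 and mt-atp8 at -0.32 ± 0.33 moved least. By complex the medians were -0.83 for I, -1.01 for IV and -0.41 for V. With scaling by library totals the median of the 2 complex V genes became 0.05, while those of complexes I and IV stayed negative at -0.36 and -0.55. MT-ND1 had 8094, 4786 and 4959 CPM in GFP-HRAS DMSO, against 12896, 6660 and 6326 CPM in RFP DMSO, and the groups overlapped in that GFP-HRAS DMSO 1 was above RFP DMSO 2 and 3.

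**Figure D4:**
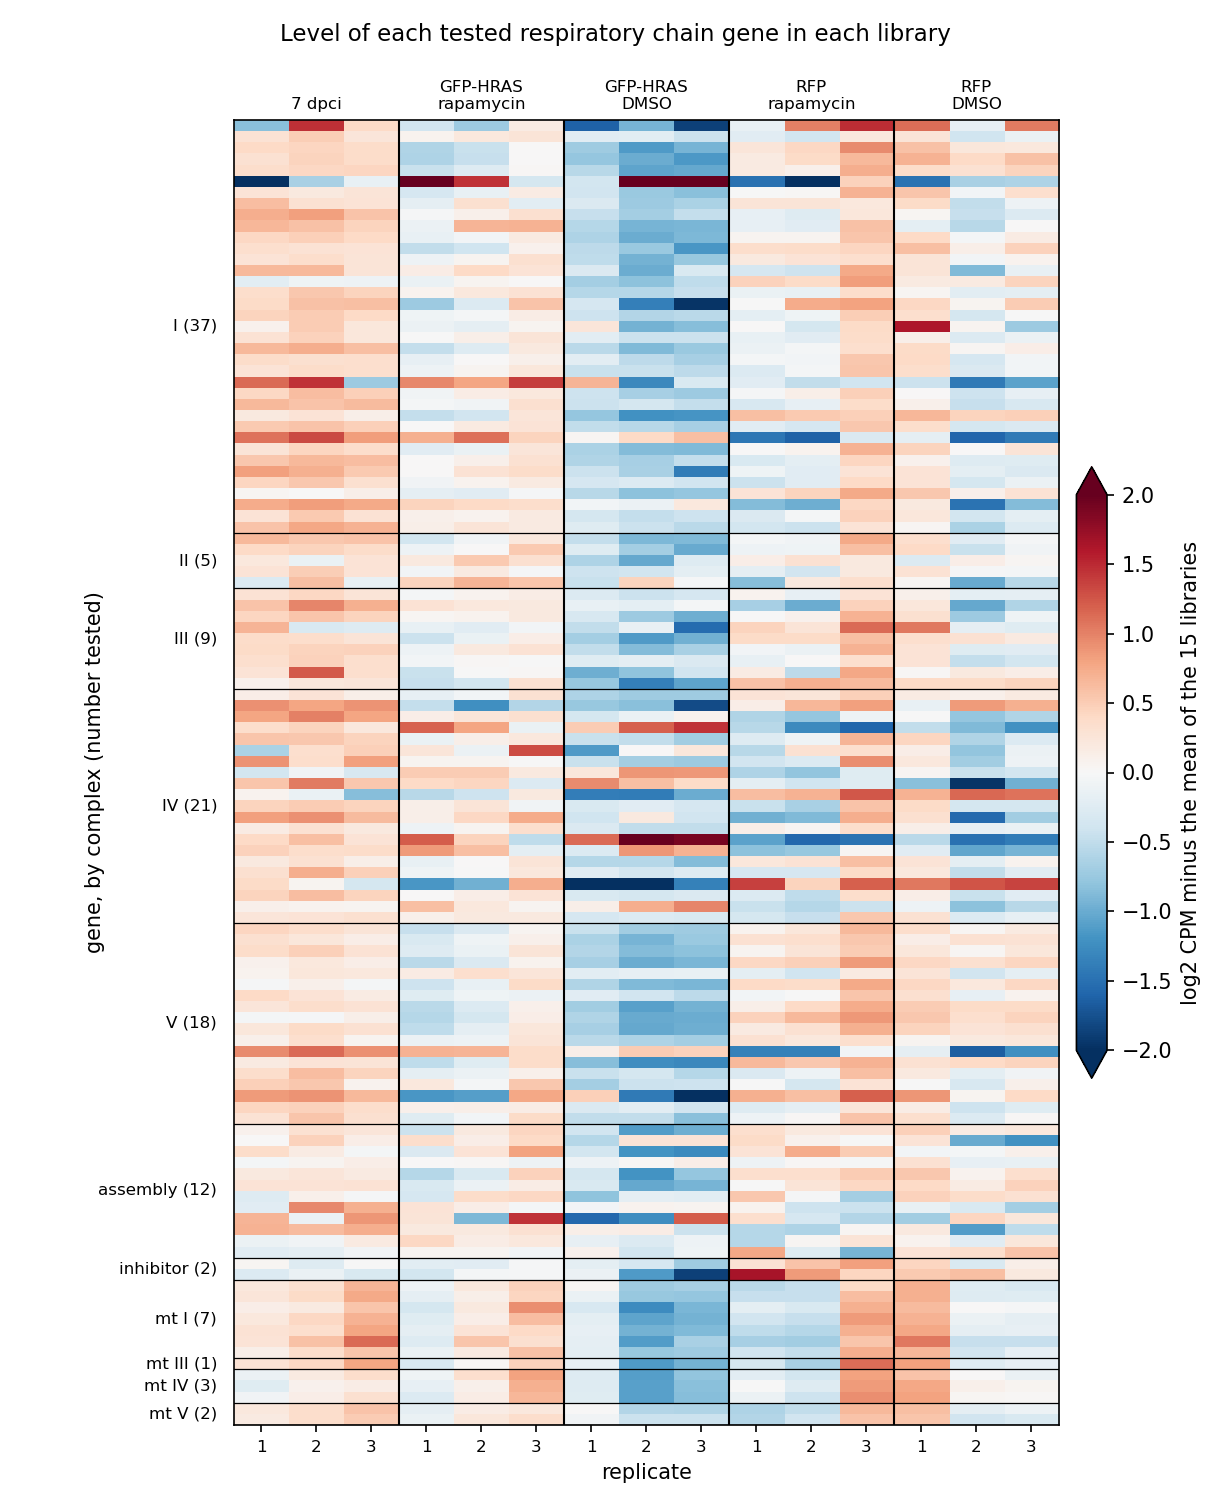
Log2 CPM of the 117 tested members in 15 libraries, each gene centred on its own mean and rows ordered by complex and genome; groups run 7 dpci, GFP-HRAS rapamycin, GFP-HRAS DMSO, RFP rapamycin and RFP DMSO from left to right, and the colour scale is clipped at -2 and 2. The GFP-HRAS DMSO columns are low for most rows, with a few complex IV rows high, and RFP rapamycin 3 and RFP DMSO 1 are high within their groups.

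Other lists of mitochondrial genes were counted in the same comparison. Among 14 tested genes for electron carriers and ubiquinone synthesis, 6 fell and 2 rose. COQ8A, a kinase-like protein of ubiquinone synthesis, fell by 2.17 ± 0.36 (adjusted p = 0.000907, edgeR), and cycsb, a cytochrome c gene, rose by 0.94 ± 0.26 (adjusted p = 0.0114, edgeR). Of 9 carriers of ATP and phosphate, creatine kinases and uncouplers, 6 fell and none rose. These included SLC25A5, an ADP/ATP carrier, at -2.26 ± 0.33 (adjusted p = 0.000553, edgeR). Of 11 regulators of mitochondrial biogenesis, 6 fell and none rose, and PPARGC1A, a coactivator of respiratory genes, changed by -1.71 ± 0.32 (adjusted p = 0.00185, edgeR). Of 33 other assembly factors, 8 fell and 2 rose. Of 16 genes for mitochondrial DNA expression, 5 fell and 2 rose, and TFAM, which packages mitochondrial DNA, was one of the higher at 0.63 ± 0.21 (adjusted p = 0.0276, edgeR). Of 68 mitochondrial ribosomal protein genes, 16 fell and 7 rose, with a median log2 change of 0.00. The background shares for all genes are those given above. Calls of these list genes come from TMM scaling with all libraries kept. How they depend on the scaling or on single libraries was not examined.

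Markers of cell types moved in this comparison as well. Of 11 tested cardiomyocyte markers, 6 were lower and 1 higher, and their summed level was 28643 to 32689 CPM in GFP-HRAS DMSO, against 43993 to 48322 CPM in RFP DMSO. Of 9 macrophage and leukocyte markers 7 were higher and none lower, with sums of 690 to 898 CPM in GFP-HRAS DMSO, against 75.4 to 223 CPM in RFP DMSO. Of 9 fibroblast and matrix markers 7 were higher and 1 lower (1096 to 2511 CPM in GFP-HRAS DMSO, against 249 to 308 CPM in RFP DMSO), and 6 of 8 smooth muscle markers were higher (1122 to 3071 CPM, against 137 to 184 CPM). Of 7 endothelial markers 6 were lower (474 to 521 CPM, against 1421 to 1653 CPM), all 3 tested lymphocyte markers were higher (17.4 to 78.9 CPM, against 0.717 to 2.15 CPM), and 2 of 3 erythrocyte markers were lower (21.4 to 32.7 CPM, against 55.0 to 106 CPM). At 0 in all 15 libraries was 1 of 3 genes with the macrophage symbol MPEG1. The part of these markers in the respiratory results was not tested.

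A second question was what rapamycin changed in the GFP-HRAS hearts. In GFP-HRAS rapamycin against GFP-HRAS DMSO, 25 of 117 members rose and none fell in edgeR's test, all of them nuclear. Over all genes 5.83% were called higher and 6.3% lower, against 21.4% and 0% of members. The median log2 change was 0.58 over nuclear and 0.80 over mitochondrially encoded members, beside 0.01 over all genes. At an unadjusted p under 0.05 there were 62 members higher and 1 lower, beside 4755 of all 16044 genes in either direction. The count rested on the scaling and on single libraries. With scaling by library totals log2 changes of all genes shifted by a median of -0.45, and the medians of the members became 0.13 and 0.35. Then 2 members were called, both lower, beside 1.58% of all genes higher and 20% lower. Leaving out GFP-HRAS DMSO 2 left 0 calls by edgeR, GFP-HRAS DMSO 3 left 1, GFP-HRAS rapamycin 2 left 6 and GFP-HRAS rapamycin 3 left 2. Of all genes 0.819%, 1.45%, 1.86% and 2.36% were called higher in those fits, in the same order. Without the 3 libraries that stood apart there were 12, all higher, beside 3.67% of all genes higher. With DESeq2 on all libraries there were 37, of which 36 were higher, beside 9.59% of all genes higher. None of the 25 calls held under every alternative.

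The rises came from every complex: 10 of 37 genes of complex I, 1 of 5 of complex II, 2 of 9 of complex III, 3 of 21 of complex IV, 7 of 18 of complex V, and 2 of 12 assembly factors. In TMM-scaled CPM the nuclear sum of each complex was higher in every GFP-HRAS rapamycin library than in any GFP-HRAS DMSO library. The ratio of means was 1.55 for complex I, 1.64 for complex II, 1.49 for complex III, 1.32 for complex IV and 1.47 for complex V. As a share of raw counts only complex III stayed without overlap, and complexes I, II, IV and V overlapped. Complex IV then averaged 0.418% ± 0.00699 in GFP-HRAS rapamycin and 0.434% ± 0.0529 in GFP-HRAS DMSO (SD, n = 3 each). NDUFV2 had 139, 149 and 231 CPM in GFP-HRAS rapamycin, against 113, 84.0 and 85.9 CPM in GFP-HRAS DMSO, and rose by 0.87 ± 0.21 (adjusted p = 0.0236, edgeR). NDUFB11, a membrane-arm subunit of complex I, had 35.1, 39.0 and 46.9 CPM in GFP-HRAS rapamycin, against 26.5, 19.4 and 22.1 CPM in GFP-HRAS DMSO (0.83 ± 0.17, adjusted p = 0.0147, edgeR). In complex V, atp5mc3b had 470, 565 and 862 CPM in GFP-HRAS rapamycin, against 368, 283 and 273 CPM in GFP-HRAS DMSO (1.03 ± 0.22, adjusted p = 0.0164, edgeR). In TMM-scaled CPM every GFP-HRAS rapamycin library was above every GFP-HRAS DMSO library for these 3 called genes. How many of all genes were without overlap was not counted. Without GFP-HRAS DMSO 2 or 3 none of the 3 was called (adjusted p between 0.0533 and 0.104), and NDUFV2 also lost its call without GFP-HRAS rapamycin 3 (0.064). With scaling by library totals none of the 3 was called either.

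Other rises of more than 0.9 on the log2 scale were NDUFAB1, the mitochondrial acyl carrier protein, at 1.28 ± 0.31, NDUFAF3 at 1.22 ± 0.30, ndufa9b at 1.001 ± 0.27, SDHC, a membrane anchor of complex II, at 0.97 ± 0.26, and uqcrc2a at 0.91 ± 0.22, with adjusted p-values between 0.0242 and 0.0354 (edgeR). For cox7a1 the log2 change was 1.56 ± 0.46 (adjusted p = 0.0468, edgeR), but its values were 31.6, 36.2 and 117 CPM in GFP-HRAS rapamycin, against 17.4, 17.5 and 27.8 CPM in GFP-HRAS DMSO. Library 3 was far above the other two, and without it the change was 0.70 with an adjusted p of 0.165. The adjusted p of cox7a1 was above 0.05 without any other single library except GFP-HRAS rapamycin 1 (0.0525 to 0.153). Library 3 also had the highest cox7a1 share of COX7A counts, 71.2%, against 33.7% and 36.6% in libraries 1 and 2. The genes that were higher in GFP-HRAS DMSO than in RFP DMSO were not called here: cox6a1 was -1.23 ± 0.41 (adjusted p = 0.0746, edgeR), with 136, 80.0 and 41.2 CPM in GFP-HRAS rapamycin, against 129, 254 and 218 CPM in GFP-HRAS DMSO. Over its 13 alternatives (edgeR or DESeq2) the adjusted p of cox6a1 ran from 0.0253 to 0.219. That of COX7A2 (ENSDARG00000053217) ran from 0.0461 to 0.734, so both were called lower in some fits.

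The mitochondrially encoded genes had log2 changes from 0.43 for MT-ATP6 to 1.13 for MT-ND3, and none was called. MT-ND3 had 844, 1243 and 2069 CPM in GFP-HRAS rapamycin, against 864, 455 and 577 CPM in GFP-HRAS DMSO (1.13 ± 0.39, adjusted p = 0.079, edgeR). MT-CO1 had 38123, 51432 and 70878 CPM in GFP-HRAS rapamycin, against 34156, 19013 and 23476 CPM in GFP-HRAS DMSO (1.06 ± 0.37, adjusted p = 0.0834, edgeR). The groups overlapped for MT-ND3 and not for MT-CO1. The CPM sum over the 3 mitochondrially encoded complex IV genes was 2.01 times as high in GFP-HRAS rapamycin without overlap, while the sums for complexes I, III and V overlapped. As a share of raw counts those 3 genes made up 8.16% ± 1.9 in GFP-HRAS rapamycin and 5.57% ± 1.38 in GFP-HRAS DMSO, with overlap.

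Of other mitochondrial lists, 3 of 14 genes for electron carriers and ubiquinone, 3 of 33 assembly factors, 2 of 16 for mitochondrial DNA expression, 1 of 11 biogenesis regulators, 2 of 9 carriers and 2 of 68 ribosomal proteins rose, and none fell. SLC25A5 changed by 1.6 ± 0.32 (adjusted p = 0.0135, edgeR). Cardiomyocyte markers were higher for 4 of 11 tested and lower for none (50539 to 52384 CPM in GFP-HRAS rapamycin, against 28643 to 32689 CPM in GFP-HRAS DMSO). Macrophage and leukocyte markers were lower for 5 of 9 (81.1 to 214 CPM, against 690 to 898 CPM), lymphocyte markers for 3 of 3 (1.47 to 6.68 CPM, against 17.4 to 78.9 CPM), and endothelial markers were higher for 3 of 7 (809 to 1126 CPM, against 474 to 521 CPM). No fibroblast marker was called (339 to 1548 CPM, against 1096 to 2511 CPM), and 1 of 8 smooth muscle markers was lower (631 to 2950 CPM, against 1122 to 3071 CPM). Their part in the respiratory results was not tested.

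Rapamycin in the RFP hearts gave no call. In RFP rapamycin against RFP DMSO, 0 of 117 members were called higher and 0 lower by edgeR, as were 0% and 0% of all genes. At an unadjusted p under 0.05 there were 787 genes, of which 1 was a member, and DESeq2 called 0 members. The median log2 change was 0.14 over nuclear and -0.08 over mitochondrially encoded members. The nuclear sum averaged 23959 ± 4746 CPM in RFP rapamycin and 21562 ± 2533 in RFP DMSO, overlapping. NDUFV2 had 294, 280 and 271 CPM in RFP rapamycin, against 307, 264 and 271 CPM in RFP DMSO. The difference between the rapamycin effects in the 2 lines was tested as an interaction and called 0 of 117 members by edgeR and 0 by DESeq2, beside 0.00623% of all genes higher and 0.0436% lower. At an unadjusted p under 0.05 it had 24 of 117 members, 23 of them with the larger value in the GFP-HRAS line. Over all 16044 genes tested, 2303 had such a p in either direction. Its median was 0.46 over nuclear and 0.94 over mitochondrially encoded members. No single member therefore passed the test of a different response in the 2 lines, and this design does not show that the responses are alike.

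The HRAS comparison was also made among rapamycin-treated hearts. In GFP-HRAS rapamycin against RFP rapamycin, 7 of 117 members were higher and 12 lower by edgeR, 5.98% and 10.3%, beside 10.4% and 7.71% of all genes. The median log2 change was -0.09 over nuclear and 0.17 over mitochondrially encoded members. Neither sign was stable. On leaving out single libraries the medians ran from -0.20 to 0.08 and from -0.04 to 0.63. Complex V had 3 lower and 1 higher of 18, complex I 4 lower and 2 higher of 37, complex IV 2 lower and 4 higher of 21, and complex III 2 lower of 9. The complex V sum averaged 8764 ± 1478 CPM in GFP-HRAS rapamycin and 11993 ± 1965 in RFP rapamycin without overlap, whereas those of complexes I, II, III and IV overlapped. The count was unstable. It was 1 without GFP-HRAS rapamycin 1, 2 without GFP-HRAS rapamycin 2 and 29 without GFP-HRAS rapamycin 3, and 11, 1 and 12 without RFP rapamycin 1, 2 and 3 in turn. Without GFP-HRAS rapamycin 1, 2 and 3 in turn, 4.21%, 4.13% and 15.6% of all genes were higher and 1.85%, 1.81% and 13.6% lower. Without RFP rapamycin 1, 2 and 3 in turn, 6.15%, 3.28% and 7.85% were higher and 3.95%, 2.01% and 6.51% lower. Without the 3 libraries that stood apart the member count was 34, beside 15.9% of all genes higher and 14.4% lower. None of the 19 calls held under every alternative.

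The higher calls included cox6a1 (ENSDARG00000022438), with 136, 80.0 and 41.2 CPM in GFP-HRAS rapamycin, against 27.8, 19.7 and 21.1 CPM in RFP rapamycin, a log2 change of 1.91 ± 0.42 (adjusted p = 0.0144, edgeR). COX5B (ENSDARG00000015978) had 115, 88.4 and 46.4 CPM in GFP-HRAS rapamycin, against 34.5, 21.1 and 16.8 CPM in RFP rapamycin (1.79 ± 0.38, adjusted p = 0.0124, edgeR). Neither overlapped between the groups. Without RFP rapamycin 2 both lost their calls (adjusted p = 0.0634 and 0.0566), and cox6a1 also without GFP-HRAS rapamycin 1 (0.0569). The others were ndufa4b, NDUFS7, atp5mc1, COX7A2 (ENSDARG00000053217) and cox8a, from 0.79 to 1.86. The lower calls ran from -1.31 for COX4I2 to -0.58 for UQCRC2 and included COX7A2L, ATP5PF, NDUFA2, ATP5F1D, uqcrc2a, NDUFA3, atp5if1a, atp5mc3b and NDUFV2. This comparison and the one in DMSO use different libraries in both groups. Of smooth muscle markers 5 of 8 were higher here, of macrophage markers 2 of 9, and of cardiomyocyte markers 2 were higher and 1 lower of 11. Summed smooth muscle markers were 631 to 2950 CPM in GFP-HRAS rapamycin, against 134 to 194 CPM in RFP rapamycin, and cardiomyocyte markers 50539 to 52384 CPM, against 43560 to 64031 CPM. Their part in these calls was not tested. Of the mitochondrial lists, 3 of 9 carriers, 3 of 11 biogenesis regulators and 9 of 68 ribosomal proteins were lower, and 2 ribosomal proteins were higher.

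**Figure D5:**
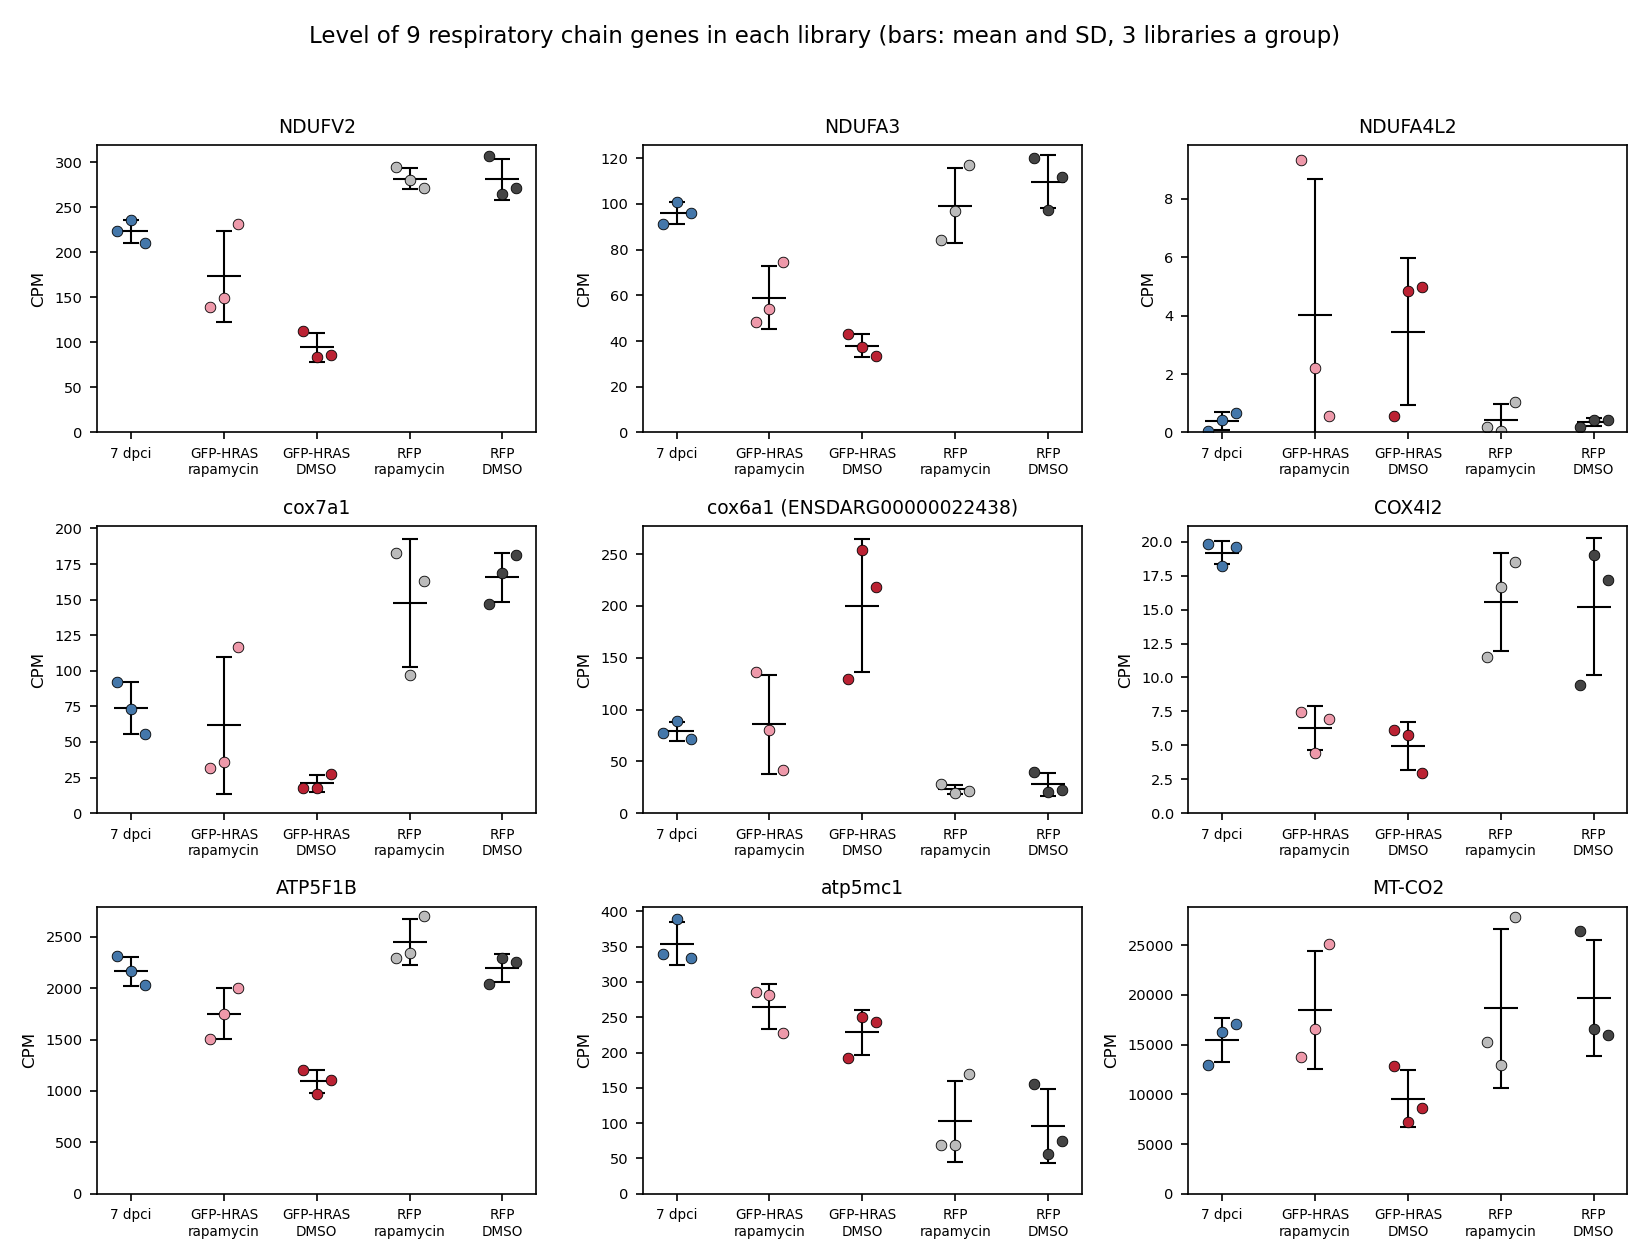
TMM-scaled CPM per library for 9 genes, NDUFV2, NDUFA3, NDUFA4L2, cox7a1, cox6a1, COX4I2, ATP5F1B, atp5mc1 and MT-CO2, with the group mean and SD of 3 libraries; each y axis starts at 0, where the lower error bar of NDUFA4L2 is cut. NDUFV2, NDUFA3, cox7a1 and ATP5F1B are lowest in GFP-HRAS DMSO, and cox6a1 is highest there.

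The title of the series also sets the oncogene hearts beside regenerating ones. The 7 dpci libraries come from another count table and another strain, without 4-OHT or DMSO, so that injury, strain, drug and table cannot be told apart in what follows. Both comparisons that follow use the same 7 dpci libraries, and each shares its other group with the comparisons above, so their values are given side by side and not as separate support.

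In 7 dpci against RFP DMSO, 26 of 117 members rose and 2 fell in edgeR's test, 22.2% and 1.71%, beside 18.8% and 17.7% of all 16421 genes. Here the share of higher calls was near that of all genes and the share of lower calls was under it. The median log2 change was 0.33 over nuclear and 0.26 over mitochondrially encoded members, beside 0.02 over all genes, and no mitochondrially encoded gene was called. Of all genes 12%, 12.5% and 13.3% were called higher without RFP DMSO 2, RFP DMSO 3 and 7 dpci 2. The member count in these fits was 12, 13 and 15. It was 41, of which 40 were higher, without RFP DMSO 1, 43, of which 42 were higher, with scaling by library totals, and 58, of which 56 were higher, without the 3 libraries that stood apart. The share of all genes called higher was 17.6%, 21.4% and 21.7% in those fits, in the same order. Of the calls, 11 of 26 higher and 1 of 2 lower held under every alternative.

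By complex, 11 of 37 nuclear genes of complex I rose, 3 of 9 of complex III, 8 of 21 of complex IV, 2 of 18 of complex V and 2 of 12 assembly factors; the 2 that fell were of complex IV. Summed levels did not overlap for complexes I, II, III and IV, with ratios of means of 1.23, 1.38, 1.27 and 1.41. For complex V the sum averaged 11462 ± 452 CPM in 7 dpci and 10859 ± 666 in RFP DMSO and overlapped. Complex V thus made up 45.2% ± 0.626 of the nuclear sum in 7 dpci, against 50.6% ± 2.83 in RFP DMSO, and complex IV 20.9% ± 0.149 in 7 dpci, against 17.3% ± 1.56 in RFP DMSO. The overlap of complex V depended on the TMM scaling. As a share of raw counts it had 1.22%, 1.2% and 1.07% in 7 dpci, against 1.03%, 0.96% and 1.04% in RFP DMSO, without overlap. Complexes I, II, III and IV did not overlap on that scale either.

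Members that rose here included paralogues already named. COX7A2 (ENSDARG00000110700) had 15.5, 21.9 and 15.4 CPM in 7 dpci, against 5.88, 2.63 and 5.35 CPM in RFP DMSO, a log2 change of 1.93 ± 0.30 (adjusted p = 0.000565, edgeR). The gene ndufa4b had 6.47, 7.60 and 5.42 CPM in 7 dpci, against 2.61, 0.917 and 1.05 CPM in RFP DMSO (2.09 ± 0.43, adjusted p = 0.00281, edgeR). For atp5mc1 the values were 340, 389 and 334 CPM in 7 dpci, against 155, 56.1 and 75.3 CPM in RFP DMSO (1.89 ± 0.38, adjusted p = 0.00255, edgeR). None of the 3 overlapped between groups, and each call held under all 13 alternatives.

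COX5A, a nuclear subunit of complex IV, had 94.8, 110 and 94.8 CPM in 7 dpci, against 54.2, 31.8 and 36.0 CPM in RFP DMSO, and rose by 1.30 ± 0.22 (adjusted p = 0.000882, edgeR). Its share of COX5A and cox5aa counts was 17.8%, 18.5% and 17.5% in 7 dpci, against 11.3%, 8.37% and 9.15% in RFP DMSO. The gene cox6a1 (ENSDARG00000022438) had 76.9, 89.1 and 71.1 CPM in 7 dpci, against 40.1, 20.7 and 22.1 CPM in RFP DMSO (1.51 ± 0.39, adjusted p = 0.00889, edgeR). Among core subunits of complex I, NDUFV1, which binds NADH, rose by 0.83 ± 0.20 (adjusted p = 0.00622, edgeR) and NDUFS8 by 0.68 ± 0.17 (adjusted p = 0.0068, edgeR). These 4 calls held under every alternative, while others of over 1 on the log2 scale did not. NDUFS7, ndufc1, UQCR10 and SDHAF3 all lost theirs without RFP DMSO 2 or 3 (adjusted p between 0.0502 and 0.0932), NDUFS7 also without 7 dpci 1 or 2 and UQCR10 without 7 dpci 2 (0.0532 to 0.0789). COX5B (ENSDARG00000015978), at 1.18 ± 0.34 (adjusted p = 0.0176, edgeR), was lost without 7 dpci 2 or RFP DMSO 2 or 3 (0.0514 to 0.0746).

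The decreases were COX7A2L and cox7a1. COX7A2L had 1.44, 1.24 and 0.711 CPM in 7 dpci, against 2.28, 3.18 and 3.03 CPM in RFP DMSO, and fell by 1.32 ± 0.35 (adjusted p = 0.0102, edgeR), a call that held throughout. For cox7a1 the values were 92.1, 73.2 and 55.6 CPM in 7 dpci, against 147, 169 and 181 CPM in RFP DMSO, without overlap (-1.17 ± 0.43, adjusted p = 0.0457, edgeR). That call was lost on leaving out any single library of either group (adjusted p between 0.0607 and 0.144). The cox7a1 share of COX7A counts was 68.7%, 57.5% and 56.6% in 7 dpci, below every RFP DMSO library and above every GFP-HRAS DMSO library. NDUFV2, ATP5F1B and atp5mc3b, which were lower in GFP-HRAS DMSO, were not called here: ATP5F1B averaged 2166 ± 141 CPM in 7 dpci and 2197 ± 136 in RFP DMSO.

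Mitochondrial lists beyond the respiratory genes were mixed in this comparison. Of 11 biogenesis regulators 7 fell and none rose, PPARGC1A among them at -1.002 ± 0.29 (adjusted p = 0.0182, edgeR) and NRF1, a factor that binds promoters of respiratory genes, at -1.60 ± 0.25 (adjusted p = 0.000651, edgeR). Of electron carrier and ubiquinone genes 4 of 14 rose, including cycsb at 1.26 ± 0.23 (adjusted p = 0.00158, edgeR), and none fell. Of other assembly factors 4 rose and 3 fell of 33, of genes for mitochondrial DNA expression 1 rose and 4 fell of 16, of carriers 1 rose and 1 fell of 10, and of mitochondrial ribosomal proteins 9 rose and 6 fell of 70. Among cell markers, 9 of 13 macrophage and leukocyte genes (322 to 403 CPM in 7 dpci, against 75.4 to 223 CPM in RFP DMSO), 8 of 9 fibroblast and matrix genes (4249 to 4425 CPM, against 249 to 308 CPM), 6 of 8 smooth muscle genes (442 to 530 CPM, against 137 to 184 CPM), 2 of 3 lymphocyte genes (4.12 to 14.3 CPM, against 0.717 to 2.15 CPM) and 3 of 3 erythrocyte genes (297 to 601 CPM, against 55.0 to 106 CPM) were higher. Cardiomyocyte markers were higher for 2 and lower for 3 of 11 (49799 to 50180 CPM, against 43993 to 48322 CPM), and endothelial markers lower for 4 of 7. The part of these markers in the respiratory values was not tested.

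Set directly against the oncogene hearts, the injured hearts had higher respiratory transcripts. In 7 dpci against GFP-HRAS DMSO, 77 of 117 members were higher and 3 lower by edgeR, 65.8% and 2.56%, beside 13.3% and 15.5% of all genes. The median log2 change was 0.91 over nuclear and 0.88 over mitochondrially encoded members, beside -0.05 over all genes. With scaling by library totals log2 changes of all genes shifted by a median of -0.34. Then 53 members were higher and 5 lower, beside 7.86% and 28.1% of all genes. Of the calls, 46 of 77 higher and 1 of 3 lower held under every alternative. Complex I had 31 of 37 nuclear genes higher, complex II 4 of 5, complex III 7 of 9, complex IV 11 of 21, complex V 15 of 18 and the assembly factors 4 of 12. In TMM-scaled CPM the nuclear sum was 1.87 times that of GFP-HRAS DMSO, and the mitochondrially encoded sum also 1.87 times, both without overlap. The differences were smaller as shares of raw counts. Nuclear genes averaged 2.58% in 7 dpci and 1.74% in GFP-HRAS DMSO, and mitochondrially encoded genes 18.7% and 12.6%. Neither share overlapped, but the lowest mitochondrially encoded share in 7 dpci was 16.4%, against a highest of 16% in GFP-HRAS DMSO.

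Several nuclear genes are given here by complex. NDUFS3 had 119, 125 and 115 CPM in 7 dpci, against 51.9, 41.0 and 45.0 CPM in GFP-HRAS DMSO, a log2 change of 1.38 ± 0.19 (adjusted p = 0.000529, edgeR). SDHA had 674, 627 and 640 CPM in 7 dpci, against 311, 231 and 233 CPM in GFP-HRAS DMSO (1.32 ± 0.24, adjusted p = 0.00215, edgeR). COX4I2 had 19.8, 18.2 and 19.6 CPM in 7 dpci, against 6.16, 5.78 and 2.95 CPM in GFP-HRAS DMSO (1.95 ± 0.33, adjusted p = 0.00133, edgeR). UQCRC2 differed by 1.24 ± 0.16, atp5mc3b by 1.34 ± 0.20, ndufa9b by 1.47 ± 0.24 and cox7a1 by 1.82 ± 0.44 (adjusted p = 0.00869, edgeR). In complex I, NDUFB7 differed by 1.59 ± 0.39, NDUFAB1 by 1.39 ± 0.28 and NDUFA3 by 1.34 ± 0.18. Each of these held under all 13 alternatives. NDUFA1, at 2.09 ± 0.57 (adjusted p = 0.0167, edgeR), did not, and was lost without 7 dpci 2 (0.0906) or GFP-HRAS DMSO 3 (0.0661).

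The 3 members lower in 7 dpci than in GFP-HRAS DMSO were all paralogues that had been higher in GFP-HRAS DMSO than in RFP DMSO. COX7A2 (ENSDARG00000053217) had 26.4, 32.2 and 27.3 CPM in 7 dpci, against 39.9, 62.7 and 61.9 CPM in GFP-HRAS DMSO, and was lower by a log2 change of -0.94 ± 0.21 (adjusted p = 0.00604, edgeR) that held throughout. For cox6a1 (ENSDARG00000022438) the change was -1.34 ± 0.38 (adjusted p = 0.0199, edgeR), and for NDUFA4L2 it was -3.19 ± 1.14 (adjusted p = 0.05, edgeR). The call of cox6a1 was lost without GFP-HRAS DMSO 2 or 3 or 7 dpci 1 or 3 (adjusted p between 0.0557 and 0.0877), and that of NDUFA4L2 without GFP-HRAS DMSO 2 or 3 or any 7 dpci library (0.0812 to 0.152).

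Mitochondrially encoded genes of complex I were called higher for 5 of 7: MT-ND2, MT-ND3, MT-ND4, MT-ND5 and MT-ND6, with log2 changes from 0.998 to 1.30 and adjusted p-values between 0.039 and 0.0474 (edgeR). MT-ND3 had 1193, 1221 and 1591 CPM in 7 dpci, against 864, 455 and 577 CPM in GFP-HRAS DMSO, without overlap. All 5 calls were lost without GFP-HRAS DMSO 2 or 3 or any one of the 7 dpci libraries, with adjusted p-values between 0.0595 and 0.157, and with scaling by library totals (0.0631 to 0.0851). Genes of complexes III, IV and V were not called. Of the other lists, 8 of 14 electron carrier and ubiquinone genes, 7 of 33 assembly factors, 4 of 16 genes for mitochondrial DNA expression and 7 of 10 carriers were higher in 7 dpci and none lower, while biogenesis regulators were higher for 2 and lower for 2 of 11. Cardiomyocyte markers were higher for 5 and lower for 3 of 11 (49799 to 50180 CPM in 7 dpci, against 28643 to 32689 CPM in GFP-HRAS DMSO), and macrophage and leukocyte markers for 3 each of 13 (322 to 403 CPM, against 690 to 898 CPM). Fibroblast markers were higher for 4 of 9 (4249 to 4425 CPM, against 1096 to 2511 CPM), endothelial markers for 4 of 7 (851 to 949 CPM, against 474 to 521 CPM) and erythrocyte markers for 3 of 3 (297 to 601 CPM, against 21.4 to 32.7 CPM). Smooth muscle markers were lower for 4 of 8 (442 to 530 CPM, against 1122 to 3071 CPM) and lymphocyte markers for 2 of 3 (4.12 to 14.3 CPM, against 17.4 to 78.9 CPM). The part of these markers was not tested.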

How the data were processed

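Per the submitters' processing notes, reads were aligned with HISAT2 2.1.0 to GRCz11, collapsed by molecular identifier with UMI-tools 1.1.1 and counted with featureCounts 1.6.0; for annotation and strand setting the sources used here give nothing. The authors deposited raw counts per gene in 2 tables, and 15 libraries (15861618 to 20003711 counts) were used. No column of another sample was left out. Columns named Ras were read as the GFP-HRAS line and those named UR as UAS:RFP, the only other line of that table, so every value of these groups rests on that reading. Per the labels' protocols, RNA was isolated with QIAzol and an RNeasy Micro kit including a DNase step, and a CORALL mRNA-Seq kit was used for the libraries.

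Genes were filtered with edgeR 4.0.16 (R 4.3.3), scaled by TMM and tested with edgeR's quasi-likelihood test, in a fit of 12 libraries for the transgenic groups and of 15 for 7 dpci. P-values were adjusted by Benjamini-Hochberg over all genes tested, and genes under 0.05 were called. The fit was tested on simulated counts in which only a small part of the genes changed, so that test does not bear on the choice of scaling. Log2 CPM used a prior count of 2. Alternatives were library totals, DESeq2 1.42.0, no filter, only the groups compared, scaling without mitochondrially encoded genes, a replicate block, each library left out in turn, and, chosen after seeing the data, 3 libraries that stood apart left out.

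Named genes were the mitochondrially encoded ones, core subunits, tissue isoforms and up to 10 called members with the largest changes in each direction; exceptions are stated. Members and lists were chosen with earlier results of these data known. Genes named from the other lists, such as PPARGC1A and TFAM, fall outside that naming rule. For the other lists and the cell markers, calls were not examined under the alternatives. Counting error and depth limit genes of a few CPM, and 9 members share a symbol with another.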

Additional observations from a re-analysis of the deposited data

How the results depend on the processing

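No call reversed under any alternative. The 50 members called in GFP-HRAS DMSO against RFP DMSO numbered 38 to 55, and the 80 in 7 dpci against GFP-HRAS DMSO 58 to 99; both comparisons without a member called stayed at 0. For rapamycin in GFP-HRAS hearts 25 members were called, all higher. With library totals 2 were called, both lower, and none of the 25 kept its call. The count was 2 with only the groups compared, 14 with the replicate block, 12 without the 3 libraries that stood apart and 37 with DESeq2. It was 0 to 31 on leaving out single libraries. The 19 called for GFP-HRAS against RFP under rapamycin became 11 with no filter, 4 with only the groups compared, 12 with the replicate block, 34 without the 3 libraries and 1 to 29 on leaving out single libraries. The 28 called in 7 dpci against RFP DMSO became 43 with library totals, 58 without the 3 libraries and 12 to 41 on leaving out single libraries. The share of all genes called higher moved between fits as well. It ran from 0.819% to 9.59% for rapamycin in GFP-HRAS hearts and from 3.28% to 15.9% for GFP-HRAS against RFP under rapamycin. For 7 dpci against RFP DMSO it ran from 10.8% to 24.6%. The cause was not tested. Same-numbered libraries of 2 groups correlated between -0.333 and 0.164 in their deviations from the group means. Whether the numbers pair samples is not stated in the labels, and such correlations cannot settle it. With the replicate block the counts in the other comparisons were 45, 0, 0, 25 and 77. Under library totals higher calls made up 35% of calls in the first comparison, against 18% with TMM, and 47.1% in GFP-HRAS against RFP under rapamycin, against 36.8%. The comparison of 7 dpci with uninjured hearts was not run, nor was the rapamycin difference with only the groups compared. Genes of a few CPM are limited by depth.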
